A study of Mus musculus with 2 samples.

Results

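The DUSP and Sprouty feedback inhibitors described here are 10 genes listed by symbol. No threshold on a measured value defined the list, but it was written with earlier results of these arrays known. They are the MAP kinase phosphatase genes Dusp1, Dusp4, Dusp5, Dusp6, Dusp7, Dusp8, Dusp10 and Dusp16 and the Sprouty genes Spry2 and Spry4. Each of the 10 has 1 probe set among the 22206 gene probe sets of the Clariom S mouse array. Total RNA came from F2 cells, a mouse vascular endothelial line that was derived from a tumor induced by UV irradiation and has a mixed BALB/c and C57BL/6 background. Both cultures are labelled as transfected with hBACCS2, a fusion protein that opens the ORAI1 Ca2+ channel under blue light, and only part of the cells take up the plasmid. The blue light positive culture received 470 nm light at about 0.4 mW/mm2 in repeats of 2 min light and 18 min interval over 4 h, and the blue light negative culture is the comparison. Elsewhere in the submitted text the control is said to lack hBACCS2, and the irradiation note is the same for both samples, so the comparison is given as the sample labels name it. The 2 cultures are called lit and unlit below. There is 1 array per condition, no difference has a replicate, and no p-value is given.

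MAP kinase phosphatases are dual-specificity phosphatases, enzymes that remove the phosphates from both the threonine and the tyrosine that activate a MAP kinase. The kinases they switch off are ERK, JNK and p38, which carry growth factor and stress signals to the nucleus. Sprouty proteins act further upstream and hold back signalling from receptor tyrosine kinases to RAS and ERK. Many of these genes are themselves induced by the pathways they inhibit, which makes them negative feedback genes. In endothelial cells the receptors upstream include those for VEGF and FGF, and Ca2+ entry is one of the signals that can activate MAP kinases.

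All 10 members were measured over the signal cutoff of 24 on both arrays, and all 10 lay within 2-fold between the arrays. A ratio is the lit signal over the unlit signal, and a gene was called higher where it exceeded 2 and lower where it was less than 0.5. The count was 0 of 10 higher and 0 of 10 lower. Over the 11695 gene probe sets with a signal over 24 on both arrays, 0.958% were called higher and 1.37% lower. The median log2 ratio of the members was 0.06, and over all these probe sets it was -0.01. Of the members, 7 had a log2 ratio above 0 and 3 below, and of all tested probe sets 5669 were above and 5978 below. Dusp4 had the highest ratio of the members and Dusp7 the lowest. At a ratio above 1.5 or under its inverse these were the only members called, 1 higher and 1 lower of 10, where 7.55% of all tested probe sets were higher and 8.47% lower. Neither share can be read as particular to the members.

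**Figure D1:**
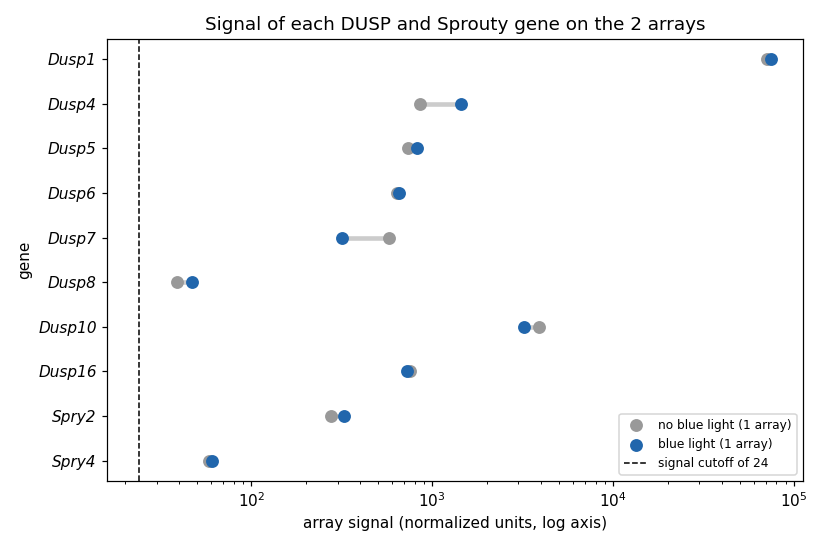
Signal of each member on the array without blue light (grey) and with blue light (blue), on a log axis in normalized units, with the signal cutoff of 24 as a dashed line. The points of Dusp4 and Dusp7 lie farthest apart, in opposite directions, while those of Dusp1, Dusp6, Dusp16 and Spry4 nearly coincide.

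Since there are no replicate arrays, a single ratio was set against how widely ratios of other probe sets scatter at a like signal. The tested probe sets were divided into 8 groups of equal size by mean log2 signal, and the standard deviation (SD) of their log2 ratios was between 0.352 in the brightest eighth and 0.496 in the second dimmest. This scatter covers both array noise and true differences and is no replicate error. Of the 10 members, 8 had a log2 ratio smaller in size than the SD of their own eighth, the exceptions being Dusp4 and Dusp7. The share of all tested probe sets within the SD was not counted, so 8 of 10 cannot be read as particular to the members. Signals of different probe sets are not compared with each other, since probes differ in how strongly they bind.

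**Figure D2:**
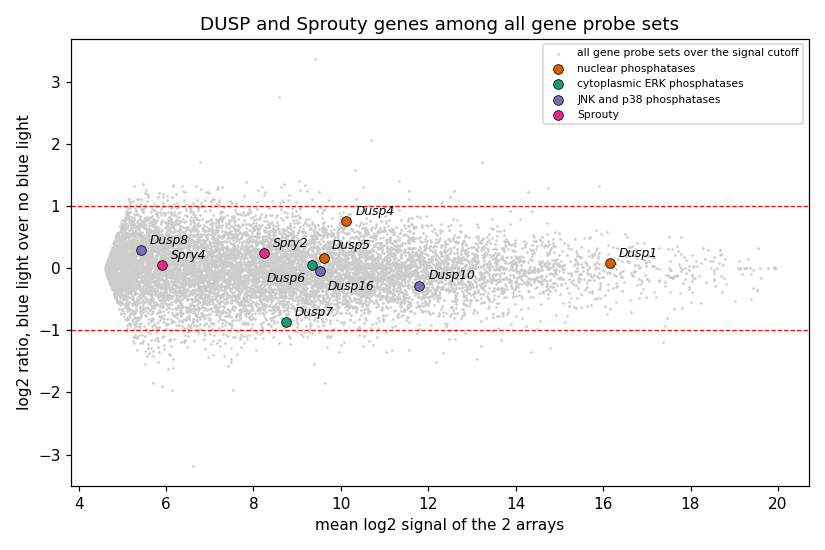
Log2 ratio of blue light over no blue light against the mean log2 signal of the 2 arrays for the 11695 gene probe sets over the signal cutoff (grey) and the 10 members (coloured by role), with dashed lines at a ratio of 2 and 0.5. All members lie between the dashed lines, Dusp4 at 0.76 and Dusp7 at -0.86 nearest to them.

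Among the members, phosphatases of the nucleus are encoded by Dusp1, Dusp4 and Dusp5, genes known as inducible by mitogens or stress. Dusp1, which acts on p38, JNK and ERK, had an unlit signal of 70915 and a lit signal of 74880. The ratio was 1.06, or 0.08 on the log2 scale, so this early response gene was at nearly the same signal on both arrays. Dusp4, which acts on ERK and JNK, had an unlit signal of 855 and a lit signal of 1452. Its ratio was 1.70 and its log2 ratio 0.76, against an SD of 0.411 in its eighth of signal. Dusp4 was thus the member with the largest difference towards blue light, and 96.9% of all tested probe sets had a lower ratio. In its own eighth of signal 98.3% had a lower ratio, and the central 95% of log2 ratios ended at 0.72. Dusp5, which acts on ERK alone, had an unlit signal of 740 and a lit signal of 824, a log2 ratio of 0.16. The 3 members that encode nuclear phosphatases were all on the side of blue light, with a median of 0.16. For 2 of the 3 the difference was less than the scatter.

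The promoters of Dusp1 and Dusp5 are shown because they hold matches to response elements of Ca2+, cAMP and growth factor signals. The cAMP response element, CRE, which also serves Ca2+ signals, is the sequence TGACGTCA, to which CREB and ATF proteins bind, and TGACG is its shorter core. The CArG box is the binding site of serum response factor. The 250 bases before the RefSeq start of each gene are printed 5′ to 3′ on the strand of the gene, from build GRCm38.p6, with matches in capitals. Dusp1 lies on the minus strand at chr17:26508473-26508722, and its capitals mark a lone TGACG core followed by a full CRE. Dusp5 lies on the plus strand at chr19:53528895-53529144, and its capitals mark 2 CArG boxes that adjoin each other and, downstream, a TGACG core that reads on the other strand.
Dusp1: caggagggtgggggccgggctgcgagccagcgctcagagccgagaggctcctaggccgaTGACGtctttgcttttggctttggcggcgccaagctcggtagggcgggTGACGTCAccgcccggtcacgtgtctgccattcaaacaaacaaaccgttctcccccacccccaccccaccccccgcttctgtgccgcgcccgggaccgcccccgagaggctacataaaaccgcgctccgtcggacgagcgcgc
Dusp5: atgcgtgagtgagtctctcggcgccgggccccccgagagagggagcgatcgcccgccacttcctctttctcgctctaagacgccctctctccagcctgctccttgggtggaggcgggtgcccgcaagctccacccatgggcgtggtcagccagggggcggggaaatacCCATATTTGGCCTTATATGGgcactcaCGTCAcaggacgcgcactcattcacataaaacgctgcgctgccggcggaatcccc
The full CRE of Dusp1 begins 143 bases before the start and the lone core 191 bases before it. The CArG boxes of Dusp5 begin 82 and 72 bases before the start. Dusp1 and Dusp5 had log2 ratios of 0.08 and 0.16 after 4 h of blue light cycles, the only time measured. Whether these elements act in F2 cells was not tested.

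Dusp6 and Dusp7 encode phosphatases of the cytoplasm that are selective for ERK. Dusp6, a gene widely used as a readout of ERK activity, had an unlit signal of 638 and a lit signal of 659, a ratio of 1.03 or 0.05 on the log2 scale. Dusp7 had an unlit signal of 578 and a lit signal of 318. Its ratio was 0.55 and its log2 ratio -0.86, against an SD of 0.413 in its eighth, and 2.55% of all tested probe sets had a lower ratio. In its own eighth 1.92% had a lower ratio, and the central 95% of log2 ratios began at -0.82. Dusp6 was thus at close signals on both arrays, and Dusp7 was lower with blue light by an amount short of the 2-fold cutoff. The negative control probes, whose median signals were 26.2 unlit and 26.5 lit, had 95th percentiles of 333 and 324. The unlit signal of Dusp7 was above that level and its lit signal just under it.

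The Dusp7 promoter is shown because this gene had the lowest ratio of the members. It lies on the plus strand at chr9:106368382-106368631 of GRCm38.p6, and no capitals appear since none of the motifs searched matched.
Dusp7: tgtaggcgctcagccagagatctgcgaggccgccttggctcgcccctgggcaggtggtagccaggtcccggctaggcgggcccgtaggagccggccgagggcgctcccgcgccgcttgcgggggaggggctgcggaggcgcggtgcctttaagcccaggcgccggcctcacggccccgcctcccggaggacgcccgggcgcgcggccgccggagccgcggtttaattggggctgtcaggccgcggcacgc
Its window of 300 bases was 78.7% G and C, and 98.6% of all promoter windows in the RefSeq table had a lower share.

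Dusp8, Dusp10 and Dusp16 encode phosphatases directed at JNK and p38, the stress-activated kinases. Dusp8 was dim on both arrays, with an unlit signal of 38.7, a lit signal of 47.4 and a log2 ratio of 0.29. Its signals were above 62.8% and 68.7% of the negative control probes, and with 24 added to both signals its log2 ratio was 0.19. Dusp10, which acts on p38 and JNK, had signals of 3896 unlit and 3217 lit, a ratio of 0.83 or -0.28 on the log2 scale. Dusp16, which acts mainly on JNK, had signals of 750 unlit and 724 lit, a log2 ratio of -0.05. The 3 genes did not share a direction, and their median was -0.05. Each lay within the SD of its eighth, which was 0.496 for Dusp8, 0.377 for Dusp10 and 0.411 for Dusp16.

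The Dusp8 promoter is shown because it holds 2 full CREs, more than any other member window. It lies on the minus strand at chr7:142095285-142095534 of GRCm38.p6, and the capitals mark the CREs, which begin 107 and 63 bases before the start.
Dusp8: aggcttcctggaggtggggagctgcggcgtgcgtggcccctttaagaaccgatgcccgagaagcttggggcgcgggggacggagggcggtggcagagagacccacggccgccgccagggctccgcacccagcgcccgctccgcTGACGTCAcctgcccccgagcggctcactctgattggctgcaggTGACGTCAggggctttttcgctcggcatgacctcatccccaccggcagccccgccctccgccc
Dusp8 differed by 0.29 on the log2 scale between 2 dim signals, and whether these CREs act in F2 cells was not tested.

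Spry2 and Spry4 encode Sprouty proteins, which block the step from growth factor receptors to RAS and RAF. Spry2 had an unlit signal of 277 and a lit signal of 326, a ratio of 1.18 or 0.24 on the log2 scale. The unlit signal of Spry2 was under the negative control 95th percentile of 333, and its lit signal was just over that of 324. Spry4, known in endothelium as an inhibitor of VEGF signalling, had signals of 58.7 unlit and 60.8 lit, a log2 ratio of 0.05. Its signals were above 74.3% and 74.9% of the negative control probes, so Spry4 was dim on both arrays. Both Sprouty genes were on the side of blue light by less than the SD of their eighths, which was 0.413 for Spry2 and 0.496 for Spry4.

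The promoter windows of the members were searched as a set for the elements of factors that respond to Ca2+, MAP kinases or stress. RefSeq windows of 300 bases, from 250 before to 50 after the start, matched 8 of the 10 members by symbol, and Dusp4 and Spry4 were not matched. Exact matches on either strand were counted, and a full CRE also counts as a TGACG core. The CRE was in 2 of the 8 windows, those of Dusp1 and Dusp8, and in 1.79% of all 32851 windows. The TGACG core was in 4, those of Dusp1, Dusp5, Dusp8 and Dusp16, and in 20.8% of all windows. The CArG box was in the Dusp5 window and in 1.63% of all windows. The heat shock element core GAANNTTC was in the Dusp16 window and in 7.86% of all windows. The AP-1 site TGANTCA, the ETS site CCGGAAGT, the NFAT core TGGAAA and the ATF4 composite site TGATGNAA were in 0 of the 8, and in 7.81%, 3.89%, 21.4% and 3.97% of all windows. A match is a run of letters and not a shown binding site, and the members were not tested for enrichment. The members with a CRE had log2 ratios of 0.08 for Dusp1 and 0.29 for Dusp8. Dusp5 and Dusp16, with other matches, were at 0.16 and -0.05. The members without a match were at 0.24 for Spry2, 0.05 for Dusp6, -0.28 for Dusp10 and -0.86 for Dusp7. Dusp4, at 0.76, had no window, and whether ratios go with motifs was not tested.

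**Figure D3:**
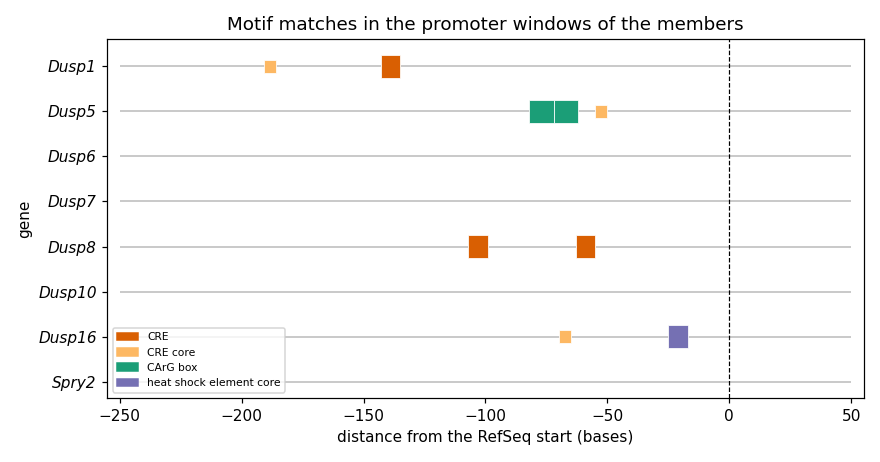
Positions of motif matches in the promoter windows of the 8 members that have one, as distance in bases from the RefSeq start (dashed line), with bars drawn to scale. CREs are seen in Dusp1 and Dusp8, adjoining CArG boxes in Dusp5, and no match in Dusp6, Dusp7, Dusp10 or Spry2.

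Among the relatives of the members, no phosphatase or Sprouty gene passed the 2-fold cutoff. Of the other classical MAP kinase phosphatases, Dusp9 had a log2 ratio of 0.11 between dim signals of 31.9 unlit and 34.3 lit. Those Dusp9 signals were above 56.6% and 59.2% of the negative control probes. Dusp2, an inducible gene of immune cells, was under the signal cutoff on both arrays, at 18.5 unlit and 16.1 lit. Of 5 other Sprouty and Spred genes 4 were over the signal cutoff and 0 were called. Spred1 and Spred2, related inhibitors of RAS and RAF, had log2 ratios of 0.48 and -0.66, and Spry3 and Spred3 were at 0.48 and -0.29. Spry1 was under the cutoff, at signals of 21.0 unlit and 12.4 lit. Members of 1 family thus lay on both sides of 0.

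Of 15 atypical dual-specificity phosphatases, which lack the domain that docks on MAP kinases, 10 were over the signal cutoff and 0 were called. Their median log2 ratio was 0.14, and 0.09 with 24 added to both signals. Dusp12 was at 0.75, Dusp26 at 0.35, Dusp3 at -0.34 and Dusp22 at 0.25. Dusp26 and Dusp22 were dim, with signals above 52.2% and 50.4% of the negative control probes unlit, and 60.4% and 56.1% lit. With 24 added their log2 ratios were 0.2 and 0.14. Dusp13 and Dusp23, also among the 10, were above 47.8% and 51.1% of these probes unlit, and 49.8% and 50.1% lit. Of 3 tyrosine phosphatases that dock on MAP kinases, only Ptpn5 was over the cutoff, with a log2 ratio of 0.35. Ptpn5 was dim, at signals of 51.2 unlit and 65.5 lit, and its log2 ratio was 0.25 with 24 added to both. Other inhibitors of receptor tyrosine kinases and RAS had 14 of 15 genes over the cutoff, 0 called and a median of -0.07. Errfi1, a feedback inhibitor of the EGF receptor, was at 0.66 with signals of 2624 unlit and 4132 lit. Cbl, a ubiquitin ligase of such receptors, was at -0.83, and Dab2ip and Rasa3, both RAS GTPase activators, were at -0.92 and -0.79. The log2 ratios of this list ran from -0.92 to 0.66, and those of the members from -0.86 to 0.76.

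**Figure D4:**
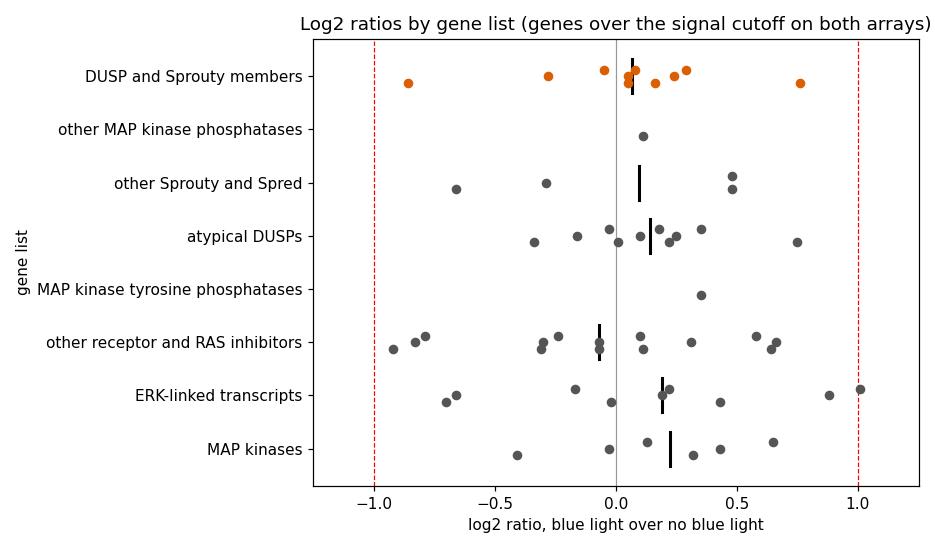
Log2 ratio of blue light over no blue light for each gene over the signal cutoff, by gene list, with black bars at list medians where a list has over 1 such gene and dashed lines at a ratio of 2 and 0.5. The 10 members (orange) centre near 0, and only Ier3 of the ERK-linked transcripts lies past a dashed line.

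Transcripts linked to ERK activity had 9 of 13 genes over the signal cutoff, with 1 higher, 0 lower and a median log2 ratio of 0.19. The higher one was Ier3, an early response gene, at signals of 2881 unlit and 5812 lit and a log2 ratio of 1.01, and it was under the fold cutoff after median scaling of the arrays. Phlda1 was at 0.88, while Etv5, an ETS factor downstream of FGF signalling, and Hbegf, an EGF receptor ligand, were at -0.66 and -0.70. Egr1, a zinc finger early response gene, was at signals of 20.5 unlit and 24.4 lit. Its unlit signal was under the cutoff, so Egr1 is not among the 9. Both of its signals were under the negative control medians of 26.2 unlit and 26.5 lit. The other genes often read as ERK output therefore did not share 1 direction either, and Dusp6 and Spry4 were each at 0.05. Of the kinases themselves, 6 of the 8 measured were over the cutoff and 0 were called. Mapk9, which encodes JNK2, was at 0.65, and Mapk8, which encodes JNK1, was at -0.41. Mapk8 was dim, with signals above 67.2% of the negative control probes unlit and 58.8% lit. With 24 added to both signals the log2 ratio of Mapk8 was -0.26. Mapk11 and Mapk12, of the p38 family, were at 0.43 and 0.32. These lists were written with earlier results of the same arrays known.

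The labelled endothelial cell type was checked against its markers. All 10 endothelial markers were over the signal cutoff, from 403 to 284467 unlit and from 220 to 231925 lit. Their summed signal was 507735 unlit and 427948 lit, most of it from Cdh5 at 284467 and 231925, and their median log2 ratio was -0.24. Markers of mural cells and fibroblasts were over the cutoff on both arrays for 3 of 9 genes, with summed signals of 253 unlit and 231 lit. Leukocyte markers were over it for 1 of 5, with sums of 107 and 102, and epithelial markers for 0 of 4, with sums of 39.9 and 42.1. These sums are set only between the arrays and not between lists. The part of these differences in the members' ratios was not tested, and in bulk RNA fewer cells that express a gene and less of its RNA per cell cannot be told apart. The 8 spiked control transcripts had log2 ratios from -0.22 to 0.11, and those of Dusp1, Dusp5, Dusp6, Dusp16 and Spry4, between -0.05 and 0.16, were no larger in size than the largest of these.

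The members' ratios changed little with the scaling of the arrays. Over the deposited values, median, quantile and loess scaling and 24 added to both signals, Dusp4 was between 0.72 and 0.81 on the log2 scale and Dusp7 between -0.91 and -0.82. Dusp1 was between 0.03 and 0.12 and Dusp5 between 0.11 and 0.21. Only Dusp16 changed sign, to 0.01 with quantile scaling. No member passed the 2-fold cutoff under any of these settings.

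**Figure D5:**
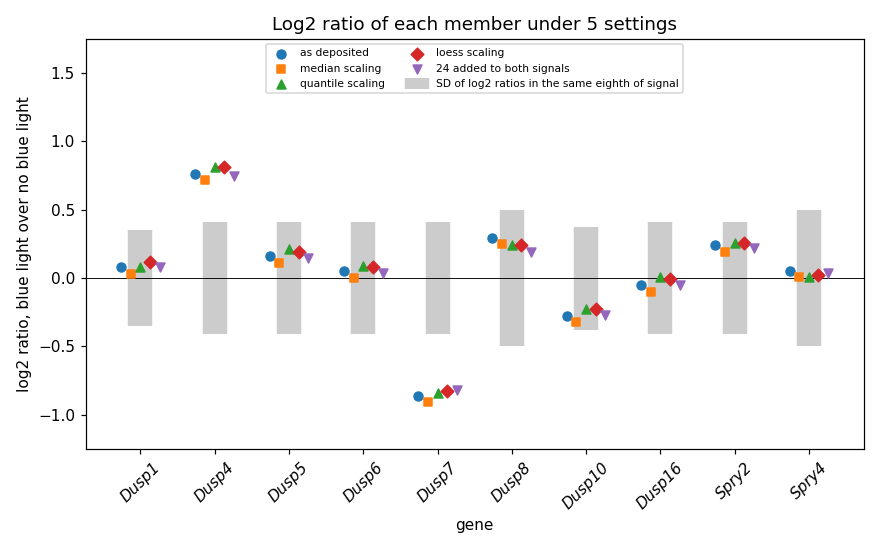
Log2 ratio of blue light over no blue light of each member under 5 settings (symbols), with grey bars spanning 1 SD of the log2 ratios of all tested probe sets in the same eighth of signal on either side of 0. Dusp4 and Dusp7 lie outside the grey bars under every setting shown, and the other 8 members lie inside them.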

How the data were processed

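The authors hybridised total RNA of each condition to 1 Clariom S mouse array, processed the scans with their array provider's software (Microarray Data Analysis Tool, release 3.2), and deposited normalized log2 values for 28846 rows. The sources used here do not state how they normalized or whether background was subtracted. The 6640 control rows were left out, and gene symbols came from the platform annotation. Members and gene lists were chosen with earlier results of these data known. Log2 ratios are blue light minus no blue light, as deposited. Calls used the fold cutoff of the study's methods and a signal over 24 on both arrays. The conditions were not compared by a statistical test, since each has 1 array. All members were named, as were called genes and up to 4 of the largest ratios of each list. Dusp2, Spry1 and Egr1 were named after their values were seen. Alternatives were median, quantile and loess scaling (span 0.3), 24 added to both signals, other signal cutoffs, a 1.5-fold cutoff and a mean per symbol. Promoters came from RefSeq on GRCm38.p6. The calling step was run on simulated ratios of known size before use. Python 3.11.15, pandas 2.3.3 and statsmodels 0.14.6 were used.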

Additional observations from a re-analysis of the deposited data

How the results depend on the processing

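No member was past the 2-fold cutoff under median, quantile or loess scaling, with 24 added to both signals, or with a signal cutoff of 100 on both arrays, of 24 on either array or none. With a fold cutoff of 1.5 the count was 2, namely Dusp4 and Dusp7. The median log2 ratio of the members was between 0.02 and 0.10 over the 9 settings that give one. Alternatives for the other gene lists were chosen after seeing the data. No paired analysis was possible because there is 1 array per condition. With 1 array per condition, neither the difference of Dusp4 nor that of Dusp7 can be set against replicate error. Dusp8 and Spry4 lie among the signals of the negative control probes. The unlit signal of Spry2 and the lit signal of Dusp7 were also under the 95th percentile of those probes. Only 6 of the 10 members were over that level on both arrays.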
